A study of Arabidopsis thaliana with 2 samples.

Results

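The genes described here encode the enzymes and regulators of tetrapyrrole synthesis, the pathway that makes chlorophyll, heme, siroheme and the bilin chromophore of phytochrome. They were taken by locus identifier from a fixed list of 31 genes, all of which were found among the 33565 rows of the gene table. The list holds 11 genes of the common trunk, 14 of the magnesium branch to chlorophyll and 6 of the heme, siroheme and bilin branch. RNA sequencing compared shoots of wn1, a whitening mutant of Arabidopsis thaliana, with shoots of the wild-type control, and both genotypes have the ecotype background Col-0. Both were raised for 7 days on solid medium at 22 °C in days of 16 h light and 8 h dark. The tissue is labelled as shoot and cotyledon. The labels give neither the mutated gene of wn1 nor its allele, and no source used here states how many seedlings were pooled or when in the day they were harvested. Each genotype was sequenced as 1 library without replicates, so the differences below could not be tested and come without p-values.

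Plants make tetrapyrroles in the plastid, starting from glutamate bound to the plastid glutamate tRNA. Glutamyl-tRNA reductase takes the first committed step toward 5-aminolevulinate, the trunk joins 5-aminolevulinate units into protoporphyrin IX, and there the pathway forks. Magnesium chelatase opens the route to chlorophyll and ferrochelatase the route to heme, while siroheme leaves the trunk earlier and bilins are made from heme. Free intermediates are photosensitizers, and the first step and the fork are the points at which the pathway is known to be controlled.

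Values are FPKM, fragments counted per kilobase of a transcript and per unit of mapped depth, as the authors deposited them. A difference is log2((wn1 FPKM + 1)/(wild-type FPKM + 1)), where the added 1 keeps low values from giving extreme ratios and understates the difference of low genes. A gene counted as measured when the mean of its 2 FPKM values was at least 1, which held for 18788 genes and for 30 of the 31 pathway genes. The steps between low FPKM values put the depth at about 12500000 fragments for wild type and 15400000 for wn1. At these depths all measured pathway genes other than PORA rested on an estimated 190 fragments or more in wild type, so the number of fragments was rarely the limit, but the spread between plants is unknown. The shoot markers RBCS1A, LHCB1.3, CA1, LHCB5 and RCA were all abundant, between 2253 and 19784 FPKM in the control and between 2248 and 13745 in wn1. Their sum was 47410 FPKM in the control and 38679 in wn1, with 4 of 5 lower. RBCS1A had 19784 FPKM in the control and 13647 in wn1, RCA 8215 and 6233, and CA1 5603 and 2806. LHCB5 was counted as lower but nearly level at 2253 and 2248 FPKM, and LHCB1.3 was higher, at 11554 and 13745. Although the tissue is labelled as shoot, the 6 root markers were all detected in both libraries. They summed to 370 FPKM in the control and 216 in wn1 with 5 of 6 lower, and the share of root tissue was not measured. PRP3 made up most of these sums, with 279 and 146 FPKM. MYB36 was nearly level at 4.28 and 4.13 FPKM, and CASP2 was higher at 13.7 and 15.3. The 4 seed storage markers summed to 85.8 FPKM in the control and 14.3 in wn1 with 4 of 4 lower, and none of either list was at 0. The part of these markers and tissues in the differences below, those of GUN4, CRD1 and PORC included, was not tested. In RNA from whole tissue, fewer cells of a type and less RNA per cell cannot be told apart.

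With deposited FPKM, the trunk genes were higher in wn1 than in wild type without exception (3 of 11 after division by column sums), while the magnesium branch was mixed and the branch to heme and bilins showed no common direction. All 11 trunk genes had a difference above 0, against 52.9% of all measured genes, and the median of the trunk was 0.69 against 0.03 for all measured genes. Those that stayed above 0 when the columns were divided by their sums were HEMA1, HEMA2 and HEME1. That scaling moved the median of all genes to -0.86 and rested on 1 organelle row, ATCG00010, at 0 in the control, which held 54.1% of all FPKM in wn1. Without that row in the sums, a choice made after the values were seen, all 11 trunk genes lay above 0 with a median of 0.80, against 0.13 for all genes. Of all measured genes, 905 were then at least 2-fold higher and 561 lower, against 690 and 685 with deposited FPKM. When differences from division by column sums, with ATCG00010 kept, were centred on the median of all genes, all 11 trunk genes lay above it. In the magnesium branch 10 of 14 genes lay above 0 and 4 below, beside 47.1% of all measured genes below 0, with a median of 0.21, which became -0.74 on division by column sums. In the heme, siroheme and bilin branch 2 of 5 measured genes lay above 0, with a median of -0.04, or 0.07 without that row in the sums. Only HEMA1 and HEME1 were at least 2-fold higher in wn1, which is 2 of 30 measured pathway genes or 6.67%, beside 3.67% of all measured genes. After division by column sums neither reached 2-fold, and HEMA1 alone did once those differences were centred. No pathway gene was at least 2-fold lower, beside 3.65% of all measured genes. At a lower limit of 1.5-fold, chosen after the values were seen, 9 pathway genes were higher and 2 were lower, beside 11.3% and 9.94% of all measured genes. Of those 9, 7 belonged to the trunk.

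**Figure D1:**
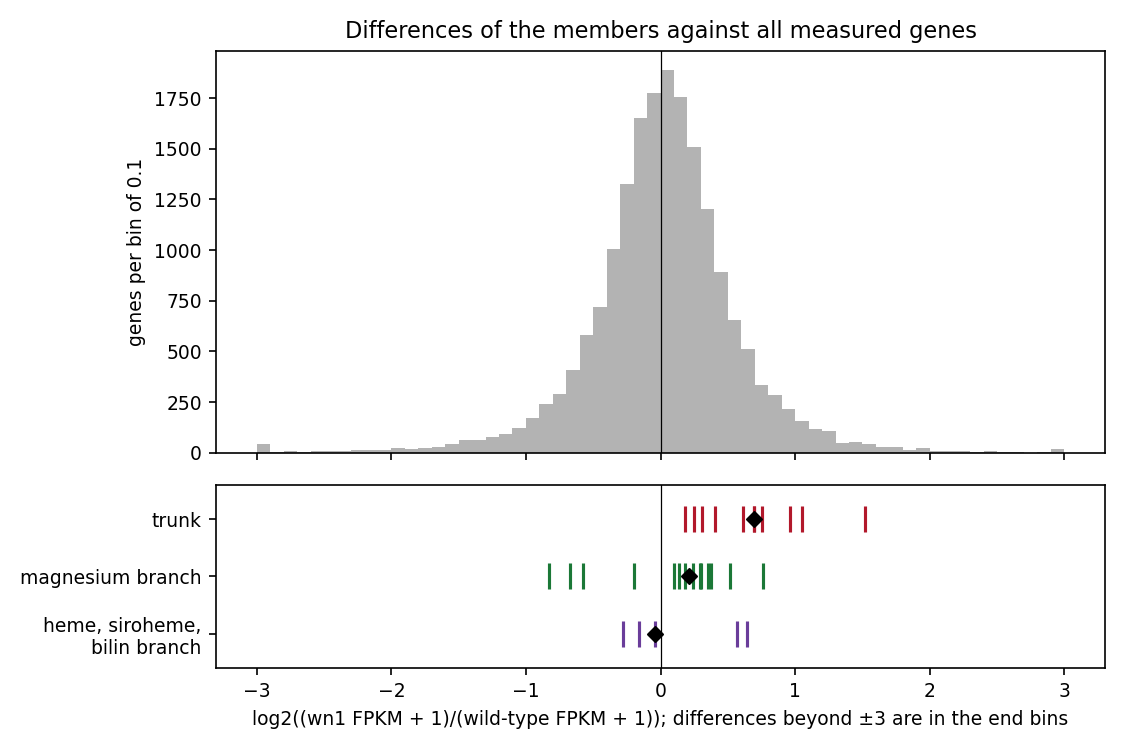
Upper panel: number of genes (y axis) by log2 difference between wn1 and wild type (x axis, FPKM + 1) for all 18788 measured genes. Lower panel: each vertical mark is 1 measured pathway gene and each diamond the median of its branch, at 0.69 for the trunk, 0.21 for the magnesium branch and -0.04 for the heme, siroheme and bilin branch. The trunk marks all lie right of 0 with deposited FPKM, while the other rows straddle it. After division by column sums, which moves the median of all genes to -0.86, 3 trunk genes stay right of 0.

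The entry step showed the largest difference among the 31 genes. HEMA1 (AT1G58290), the main glutamyl-tRNA reductase of green tissue, had 172 FPKM in the control and 494 in wn1. Its difference of 1.52 was exceeded by 1.08% of all measured genes. HEMA2 (AT1G09940), the second glutamyl-tRNA reductase gene, had 13.0 FPKM in the control and 26.2 in wn1, a difference of 0.96 that lies just inside the 2-fold limit because of the added 1. Both genes were thus higher in wn1 with deposited FPKM, and after division by column sums their differences were 0.51 for HEMA1 and 0.0019 for HEMA2. HEMA2 made up 7.03% of their summed FPKM in the control and 5.04% in wn1. Summed over both genes, glutamyl-tRNA reductase FPKM was 185 in wild type and 520.0 in wn1, a ratio of 2.82. Aminotransferase genes follow at the next step, which yields 5-aminolevulinate. GSA1 (AT5G63570) had 58.3 FPKM in the control and 89.7 in wn1, and GSA2 (AT3G48730) had 70.2 and 114. Their differences of 0.61 and 0.69 were alike, so the share of GSA2 in the pair was 54.6% in wild type and 55.9% in wn1. Such gene pairs resemble each other in sequence, and no source used here says how reads common to both were divided, so sums over a pair are firmer than shares.

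The middle trunk genes alternated between larger and smaller differences. HEMB1 (AT1G69740), the 5-aminolevulinate dehydratase that joins the first units, had 132 FPKM in the control and 164 in wn1, a difference of 0.31. HEMC (AT5G08280), the porphobilinogen deaminase that builds the linear tetrapyrrole, was the most abundant trunk gene in wild type with 199.6 FPKM and had 323 in wn1, a difference of 0.69. HEMD (AT2G26540), the uroporphyrinogen III synthase that closes the ring, was among the least abundant trunk genes with 23.7 and 31.7 FPKM, a difference of 0.40. HEME1 (AT3G14930), a uroporphyrinogen decarboxylase, had 63.2 FPKM in the control and 132 in wn1, a difference of 1.05 that 3.21% of measured genes exceeded. HEME2 (AT2G40490), the other gene of that step, had 68.6 and 116 FPKM, a difference of 0.75. HEME2 thus held 52.0% of the pair's FPKM in the control, and HEME1 held 53.2% in wn1.

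The last trunk genes, HEMF1 and PPOX1, had the smallest differences of the 11. HEMF1 (AT1G03475, named LIN2 in the gene table), a coproporphyrinogen oxidase, had 86.9 FPKM in the control and 104 in wn1, a difference of 0.25. Together with HEMF2, a second gene annotated for this step and outside the 31, the sum was 91.1 and 123 FPKM, a difference of 0.42. PPOX1 (AT4G01690), the protoporphyrinogen oxidase that makes protoporphyrin IX, had 99.1 and 112 FPKM, a difference of 0.18. HEMF1 and PPOX1 each lie within the middle of all measured genes, whose quartiles were -0.25 and 0.31. Along the trunk, the ratio of summed FPKM of wn1 to wild type was 2.82 at the reductase, 1.58 at the aminotransferase and 1.24 at HEMB1. It was 1.62 at HEMC, 1.34 at HEMD and 1.88 at the decarboxylase. At the last steps it was 1.19 for HEMF1 alone, 1.35 with HEMF2, and 1.13 for PPOX1 alone.

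**Figure D2:**
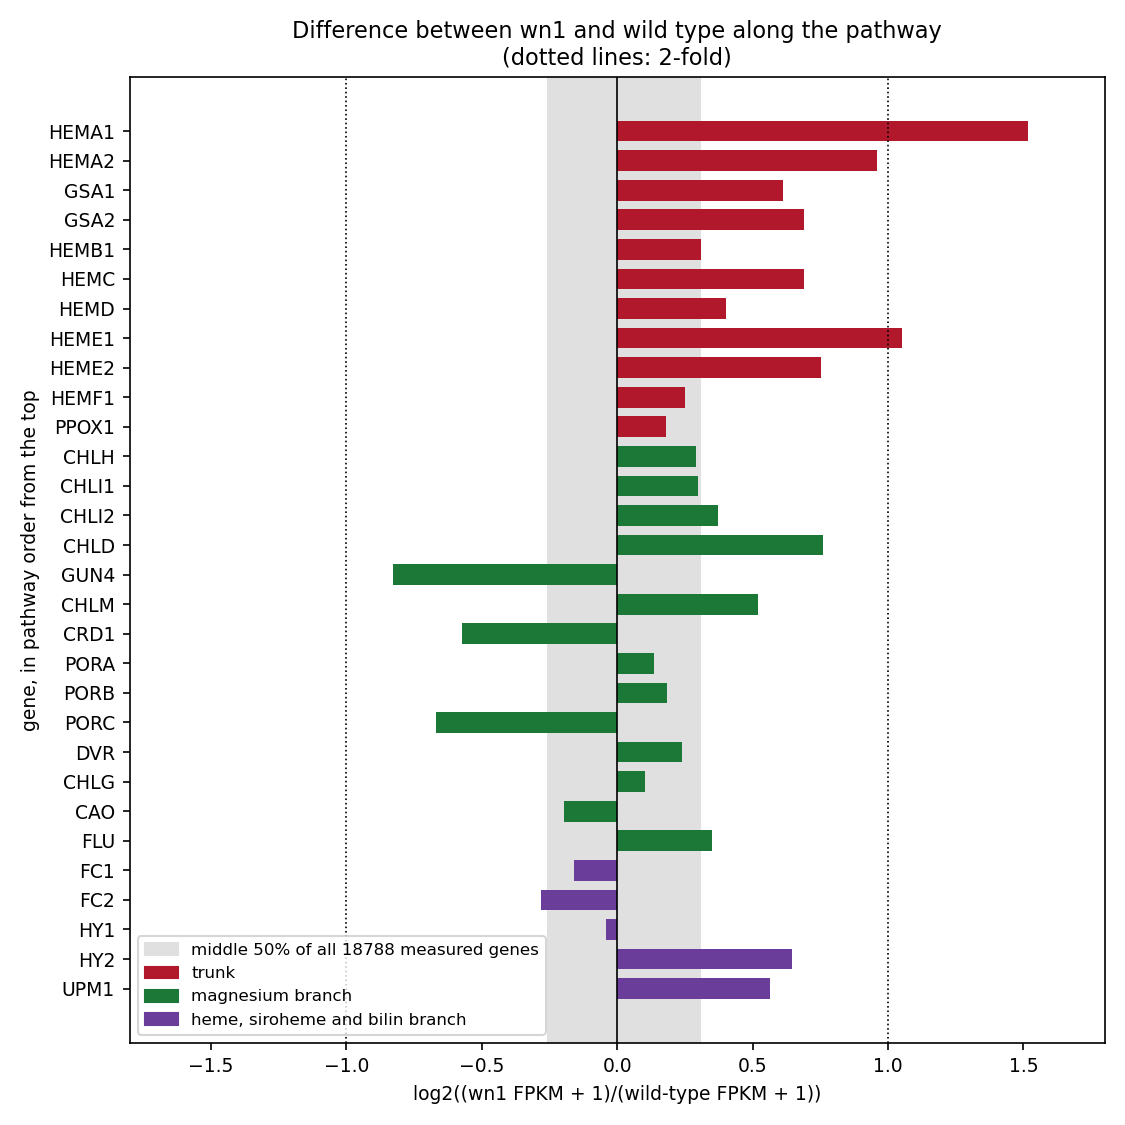
Log2 difference between wn1 and wild type (x axis, FPKM + 1) for the 30 measured pathway genes in pathway order from the top (y axis), 1 library per genotype and no error bars. The grey band spans the quartiles of all measured genes, -0.25 and 0.31, and the dotted lines mark 2-fold. HEMA1 has the longest bar at 1.52, PPOX1 ends the trunk at 0.18, and GUN4 has the lowest value at -0.83. Division by column sums moves all bars to lower values and turns 8 of the 11 trunk bars below 0. It also moves the median of all genes to -0.86.

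At the fork, the subunits of magnesium chelatase were higher in wn1 and their activator GUN4 was lower. CHLH (AT5G13630, named GUN5 in the gene table), the large subunit that binds the porphyrin, had 1030 FPKM in the control and 1261 in wn1, a difference of 0.29. It stood above 99.5% of measured genes in wild type. CHLI1 (AT4G18480), the main ATPase subunit, had 364 and 448 FPKM, a difference of 0.30, and its copy CHLI2 (AT5G45930) had 42.9 and 55.9, a difference of 0.37. CHLD (AT1G08520, named ALB1 in the gene table), the remaining subunit, had 110 FPKM in the control and 187 in wn1. The difference of CHLD, 0.76, was the highest of the magnesium branch, and 6.97% of measured genes exceeded it. All 4 subunit genes were above 0 with deposited FPKM. All 4 were below 0 after division by column sums, which moved the median of all genes to -0.86. Once those differences were centred on that median, all 4 lay above 0, between 0.14 for CHLH and 0.61 for CHLD. GUN4 (AT3G59400), which binds porphyrins and stimulates the chelatase, had 798 FPKM in the control and 449 in wn1, a difference of -0.83. A lower difference than that of GUN4 was found in 5.43% of measured genes. Within each library, CHLH had 1.29 times the FPKM of GUN4 in wild type and 2.81 times in wn1, ratios that no scaling of the columns alters.

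Downstream, the methyltransferase was higher in wn1 with deposited FPKM and the cyclase was lower. After division by column sums the methyltransferase stood at -0.49, beside a median of -0.86 for all genes. Centred on that median, it stood at 0.37. CHLM (AT4G25080), which methylates magnesium protoporphyrin, had 352 FPKM in the control and 505 in wn1, a difference of 0.52. CRD1 (AT3G56940), the catalytic subunit of the cyclase that forms the fifth ring, was the most abundant gene of the pathway in wild type with 1597 FPKM and had 1072 in wn1, a difference of -0.57. The FPKM of CRD1 was thus 4.54 times that of CHLM in wild type and 2.12 times in wn1. DVR (AT5G18660, named PCB2 in the gene table), which reduces a vinyl side chain of the ring, had 78.5 and 92.8 FPKM, a difference of 0.24.

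Protochlorophyllide oxidoreductase, the enzyme whose reaction needs light in flowering plants, is encoded by a family of related genes. PORC was the most abundant of these in both libraries. Its counting intervals did not overlap between the libraries, as for 25 of 30 measured pathway genes, while those of PORA and PORB did. The share of all measured genes without overlap was not computed. PORC (AT1G03630), the member known from green tissue, had 164 FPKM in the control and 103 in wn1, a difference of -0.67. PORB (AT4G27440), expressed in dark-grown and green seedlings, had 27.6 and 31.5 FPKM, a difference of 0.18 whose counting intervals overlapped, with wild type reaching up to 30.0 FPKM and wn1 down to 29.3. PORA (AT5G54190), typical of dark-grown seedlings, was near the filter with 1.54 and 1.79 FPKM, resting on an estimated 31 fragments in the control and 44 in wn1. The family's summed FPKM was 193 in wild type and 136 in wn1, and the share of PORC was 84.9% and 75.5%.

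The final steps to chlorophyll lay within the quartiles of all measured genes. CHLG (AT3G51820, named G4 in the gene table), the chlorophyll synthase that attaches the phytol tail, had 103 FPKM in the control and 111 in wn1. CAO (AT1G44446, named CH1 in the gene table), the oxygenase that makes chlorophyll b, had 209 and 183 FPKM, a difference of -0.20. FLU (AT3G14110), a membrane protein that holds back glutamyl-tRNA reductase, had 97.8 FPKM in the control and 125 in wn1, a difference of 0.35. HEMA1 therefore had 1.76 times the FPKM of its inhibitor's gene FLU in wild type and 3.95 times in wn1.

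**Figure D3:**
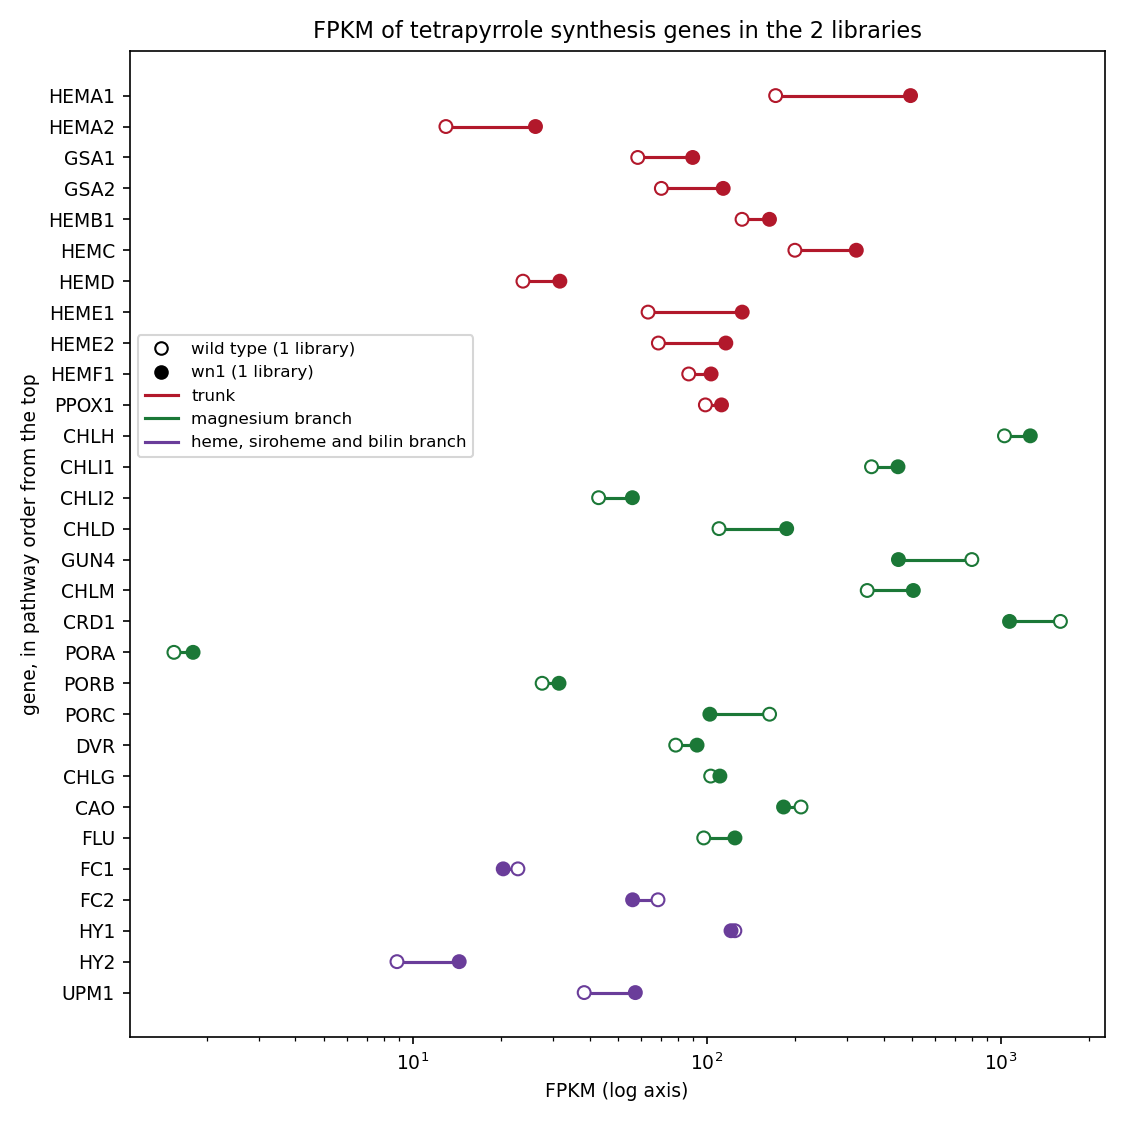
FPKM (x axis, log scale) of the 30 measured pathway genes in pathway order from the top (y axis). Open circles are the wild-type library, filled circles the wn1 library, and the line joins both values of a gene. The filled circle lies right of the open one for every trunk gene with deposited FPKM (3 of 11 after division by column sums) and left of it for GUN4, CRD1, PORC, CAO, FC1, FC2 and HY1. CRD1 and CHLH reach the highest levels, and PORA the lowest at 1.54 and 1.79 FPKM.

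The genes that draw protoporphyrin IX toward heme were slightly lower in wn1. FC2 (AT2G30390), the ferrochelatase of photosynthetic tissue, had 68.4 FPKM in the control and 56.0 in wn1, a difference of -0.28. FC1 (AT5G26030), the ferrochelatase also active outside green tissue, had 22.8 and 20.3 FPKM, a difference of -0.16 with overlapping counting intervals. FC2 had 2.99 times the FPKM of FC1 in wild type and 2.75 times in wn1. The contrast with the chelatase at the same fork was visible within each library, where CHLH had 15.1 times the FPKM of FC2 in wild type and 22.5 times in wn1. HEMA1 had 2.51 times the FPKM of FC2 in wild type and 8.81 times in wn1.

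Heme oxygenases open the heme ring to biliverdin. HY1 (AT2G26670, named TED4 in the gene table), the main heme oxygenase, had 125 FPKM in the control and 121 in wn1, a difference of -0.04. HO3 (AT1G69720), a further heme oxygenase, had 0.0725 FPKM in the control, worth about 1 fragment, and was listed at 0 in wn1, so it did not pass the filter and no ratio is given. HY2 (AT3G09150), which reduces biliverdin to the phytochrome chromophore, was low, with 8.85 FPKM in the control and 14.4 in wn1. The difference of HY2 was 0.65. UPM1 (AT5G40850), the methyltransferase that leads from the trunk to siroheme, the cofactor of nitrite and sulfite reductase, had 38.3 FPKM in the control and 57.2 in wn1, a difference of 0.57.

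**Figure D4:**
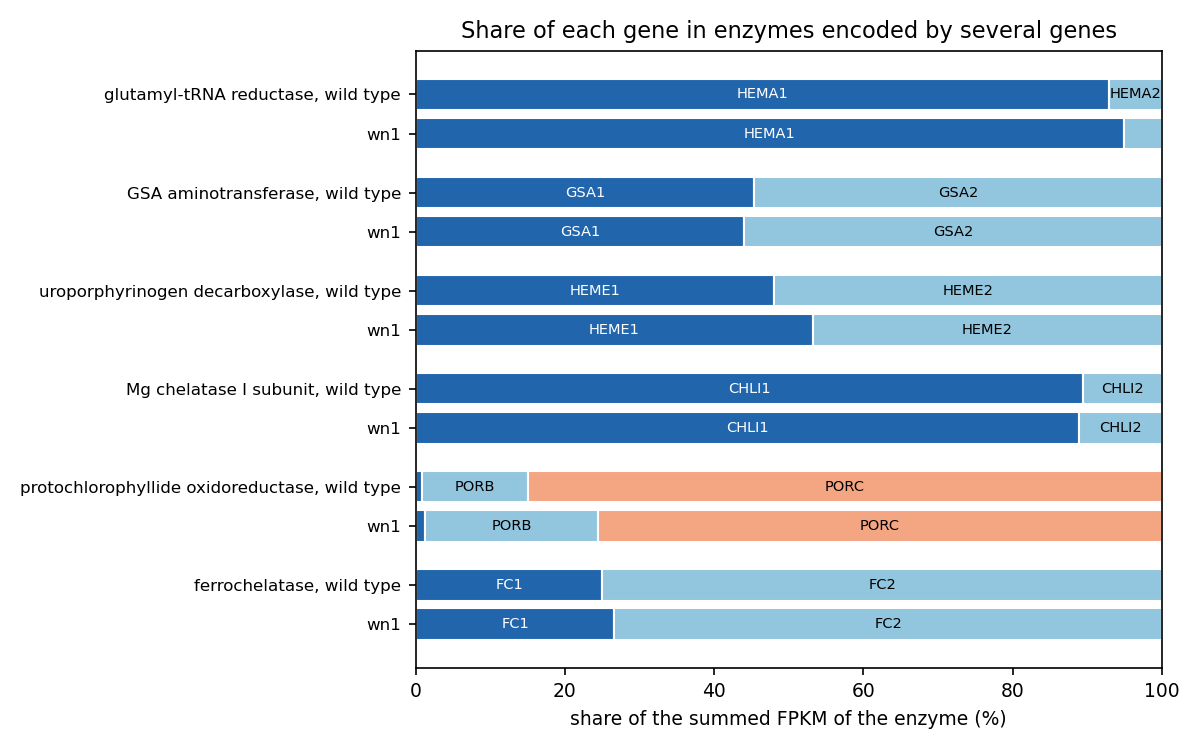
Share of each gene (x axis, percent) in the summed FPKM of 6 enzymes or subunits encoded by several genes, in the wild-type and the wn1 library (y axis). The unlabelled end segment at glutamyl-tRNA reductase in wn1 is HEMA2, and the unlabelled first segments at protochlorophyllide oxidoreductase are PORA. The share of PORC is 84.9% in wild type and 75.5% in wn1, while the shares within the other pairs lie closer together.

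The counting error was small beside these differences for most genes. For 25 of 30 measured pathway genes the exact Poisson 95% intervals of the estimated fragments did not overlap between the libraries, and for PORA, PORB, CHLG, FC1 and HY1 they did. The share of all measured genes without overlap was not computed, so this count cannot be called particular to the pathway. These intervals compare 2 libraries and not the genotypes, since they leave out the spread between plants.

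A list of 14 other genes of the pathway gave the surroundings of these members. Of these, 11 were measured and 9 lay above 0 with deposited FPKM, beside 52.9% of all measured genes. The median of the 11 was 0.34, against 0.03 for all measured genes. After division by column sums, which moved the median of all genes to -0.86, 1 of the 11 lay above 0. Once those differences were centred on the median of all genes, 8 of the 11 did. Only HEMF2 (AT4G03205), the second coproporphyrinogen oxidase gene, was at least 2-fold higher, with 4.17 FPKM in the control and 19.0 in wn1, and none was at least 2-fold lower. The difference of HEMF2, 1.95, was exceeded by 0.426% of all measured genes, and its share in the sum with HEMF1 was 4.58% in wild type and 15.5% in wn1. The most abundant gene of the list, CHLP (AT1G74470), the geranylgeranyl reductase that supplies the phytol tail, had 1190 FPKM in the control and 1625 in wn1, a difference of 0.45. The plastid glutamyl-tRNA synthetase gene ERS (AT5G64050), which charges the tRNA that the reductase uses, had 29.8 and 57.2 FPKM, a difference of 0.92, and was singled out after its value was seen.

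Over all 31 genes the summed FPKM was 6225 in wild type and 6600 in wn1, or 0.733% and 0.781% of the FPKM of nuclear genes. Within these sums the trunk had 986 FPKM in the control and 1706 in wn1 with deposited FPKM, and the magnesium branch 4975 and 4625. The lower magnesium sum does not reflect most of its genes, as 10 of 14 lay above 0 with a median of 0.21. Abundant genes weigh most in it, and CRD1 had 1597 and 1072 FPKM and GUN4 798 and 449. The gap between the medians of trunk and magnesium branch was 0.48, and it was 0.42 after division by column sums. The ranges of both groups of genes overlapped, from 0.18 to 1.52 in the trunk and from -0.83 to 0.76 in the magnesium branch.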

How the data were processed

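Total RNA of shoots was sequenced, 1 library per genotype. The authors deposited a gene table of FPKM, and the submitters' processing notes name Bowtie and the build TAIR10. The read counter, the strand setting and any polyadenylation selection are not stated in those notes. Column names tied the values to samples (WT-R, WN-R), and no source used here explains the suffix R. A further 2 per-sample columns, which match no sample here, were not used. The members and lists were chosen with earlier results of these data known. All 31 members are named, and of the 14 other pathway genes those at least 2-fold apart, the most abundant, and, after their values were seen, ERS and COX10.

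Differences, medians, sums and shares were computed with pandas 2.3.3. Percentages of genes refer to measured genes, whose mean FPKM reached 1. Depth was estimated from single-transcript genes of at least 1000 bases below 0.3 FPKM, as the depth that makes most fragment numbers whole, with transcript lengths of the TAIR10.1 annotation. Intervals are exact Poisson 95% intervals and cover counting error only. A planned search for promoter motifs was not made, because no promoter sequences were at hand. The genome used here (TAIR10.1) is also not named as the build of the table. Only the step that takes differences was run on simulated data, with planted changes well above the 2-fold limit. The depth estimate, the intervals and the spread between plants were not covered. Alternatives were another pseudocount, filters, scalings and thresholds.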

Additional observations from a re-analysis of the deposited data

How the results depend on the processing

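With 1 library per genotype, no setting gives an error between plants, and no paired analysis was possible because each group holds 1 sample. A value counted as moved beyond 1.5-fold, and a count likewise. A pseudocount of 0.1, a filter at a mean of 5 FPKM, no filter, centring, and rescaling without organelle genes or on nuclear protein-coding genes left every median, count and member difference within that limit and changed the sign of none. HEMA2 passed 2-fold with the pseudocount of 0.1, which gave 3 members at least 2-fold higher. Division of each column by its own sum rested on the row ATCG00010 and lowered all 30 measured members, though not equally, from 0.14 to -0.51 for PORA and from 1.52 to 0.51 for HEMA1. It gave medians of -0.67 for all members, -0.31 for the trunk, -0.74 for the magnesium branch and -1.04 for the heme, siroheme and bilin branch, and -0.70 for the median over enzyme steps. Under it 3 members lay above 0, 0 members reached 2-fold higher and 7 reached 2-fold lower, and of all genes 94 reached 2-fold higher and 7026 lower. Centring after that division, added after the data were seen, returned all medians to within the limit and left 1 member at least 2-fold higher. Leaving ATCG00010 out of the sums, also added, gave a median of 0.07 for the heme, siroheme and bilin branch, against -0.04, with the other medians above 0 as reported, 3 members at least 2-fold higher and, of all genes, 905 higher and 561 lower. At 4-fold, 72 genes were higher and 128 lower, with 0 members higher. At 1.5-fold, also added after the data were seen, 2114 genes were higher and 1867 lower, with 9 members higher and 2 lower. Depth limited PORA and HO3, at an estimated 31 fragments and 1 fragment in wild type.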

Other observations

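A search of the gene descriptions for porphyrins, tetrapyrroles, heme binding and heme oxygenases found 6 further genes outside the lists above. AT4G31790 and AT1G45110, both annotated as tetrapyrrole methylases, had 5.39 and 2.73 FPKM in the control and 4.55 and 2.49 in wn1. AT3G16990 and AT5G32470, annotated as heme oxygenase-like, had 27.7 and 13.3 FPKM in the control and 22.0 and 14.8 in wn1. AT3G62370, annotated as heme binding, had 13.8 and 17.8 FPKM. AT1G02350, annotated as related to protoporphyrinogen oxidase, had 0.315 and 0.775 FPKM and was below the filter. On the scale with the added 1 their differences were all smaller than 2-fold, between -0.32 for AT3G16990 and 0.43 for AT1G02350. In the list of other pathway genes, COX10 (AT2G44520), which makes heme O for the mitochondrial cytochrome oxidase, had 21.5 FPKM in the control and 14.5 in wn1, the lowest difference of that list at -0.54.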
